A study of Mus musculus with 22 samples.

Results

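The output arm of the circadian clock was followed here through 9 genes, Dbp, Tef, Hlf, Nfil3, Ciart, Usp2, Bhlhe40, Bhlhe41 and Tsku, among 32858 genes counted by RNA-Seq in 22 mouse kidneys. The genes were chosen by name, and they were chosen with measured values of these kidneys in view: normalised read counts (CPM, a gene's reads scaled to the size of its library) in the 4 treatment groups, and a split of the vehicle and KW6002 kidneys by the number on the mouse's label. All 9 had enough reads to be tested. For the comparison of KW6002 with vehicle and for the split by mouse number, the values below are therefore a description without a test. The cisplatin comparisons come from a fit across all 17131 genes with enough reads. The CPM of the cisplatin groups were also in view when the genes were chosen. The adjusted p-values of the members in these comparisons are therefore not independent support.

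The mice were male C57Bl6/J animals of 8 to 10 weeks. The design crossed 2 agents. Vehicle mice (n = 5) received DMSO and cremophor in saline. KW6002 mice (n = 6) received KW6002 (istradefylline, a selective antagonist of the adenosine receptor encoded by Adora2a) at 3 mg/kg each day from day -5 to day 7. Cisplatin mice (n = 5) received the DNA-binding antitumor agent cisplatin at 3 mg/kg in 6 daily injections, and cotreated mice (n = 6) received both. Kidneys were taken 72 h after the last cisplatin injection, 1 library per mouse, with 26471762 to 40510754 counted reads per library. The animals were kept in a light/dark cycle. The hour at which each mouse was killed is not given in the sources used here. The first 3 vehicle and the first 3 KW6002 mice carry numbers in the 300s, and the remaining 2 vehicle, 3 KW6002 and all 11 cisplatin-treated mice carry numbers in the 500s. What the 2 series of numbers stand for is not stated, and an effect of the series on cisplatin-treated kidneys cannot be told apart from that of cisplatin by the group means alone. Summed CPM of 7 proximal tubule markers lay at 15026 to 15796 in vehicle kidneys, as a renal sample should show, while muscle and lymphocyte markers were near 0. Fat markers were present: the summed CPM of 5 of them was 119 to 749 in vehicle kidneys of the 300s and 50.3 to 110 in those of the 500s. The part of fat in the member values was not tested.

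The mammalian clock is a loop in which CLOCK and BMAL1 (the product of Arntl) switch on genes with E-box motifs, among them the Per and Cry genes whose products then shut the activators down. Output genes pass this rhythm on. DBP, TEF and HLF are transcription factors of the PAR bZIP family that activate genes through D-box motifs, and NFIL3 represses through the same motif, so the 2 sides oppose each other at shared targets. Dbp is a direct E-box target with a high-amplitude rhythm in liver and kidney, whereas Nfil3 is repressed by the REV-ERB receptors (Nr1d1 and Nr1d2) through ROR elements. CIART, BHLHE40 and BHLHE41 are repressors that feed back on CLOCK and BMAL1, USP2 is a deubiquitinase, and TSKU is a secreted leucine-rich repeat protein.

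The sequence ahead of the start sites is shown for the members that carried one of these motifs, since these are the motifs through which the loop acts on its output genes. The RefSeq promoter table (GRCm38.p6) held 10 start sites for 8 of the 9 genes. The 250 bases before each start were searched on both strands for the E-box CACGTG, the D-box TTANGTAA and the ROR element TAGGTCA. Of 32851 promoters, 6.02% held the E-box, 2.06% the D-box and 2.23% the ROR element. An E-box stood ahead of 3 members (Ciart, Tef and Bhlhe41), a ROR element ahead of 1 (Nfil3) and a D-box ahead of 0, while Dbp, Hlf, Usp2 and Tsku held none of the motifs in this window. Each run is written 5′ to 3′ on the gene's strand with the motif in capitals, and bases inside annotated exons were left out, except for the 30 bases around the Nfil3 element.
Ciart, chr3:95882252-95882478, minus strand, E-boxes at 116, 58 and 44 bases before the start: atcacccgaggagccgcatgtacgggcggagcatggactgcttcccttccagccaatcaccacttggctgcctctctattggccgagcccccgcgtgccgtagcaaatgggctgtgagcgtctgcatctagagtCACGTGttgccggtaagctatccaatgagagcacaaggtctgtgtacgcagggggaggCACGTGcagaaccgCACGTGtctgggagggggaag
Tef, the downstream of its 2 listed starts, chr15:81811164-81811413, plus strand, E-box at 138 bases before the start: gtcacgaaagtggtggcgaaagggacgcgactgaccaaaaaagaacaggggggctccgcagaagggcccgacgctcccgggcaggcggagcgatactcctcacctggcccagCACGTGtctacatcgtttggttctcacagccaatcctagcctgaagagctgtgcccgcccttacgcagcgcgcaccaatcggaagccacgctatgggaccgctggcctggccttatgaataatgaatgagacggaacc
Bhlhe41, chr6:145865559-145865670, minus strand, E-box at 153 bases before the start: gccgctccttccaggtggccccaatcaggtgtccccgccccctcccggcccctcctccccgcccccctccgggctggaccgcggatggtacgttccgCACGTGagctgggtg
Nfil3, chr13:52981040-52981069, minus strand, ROR element on the opposite strand at 12 bases before the start: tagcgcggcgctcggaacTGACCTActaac
A second E-box of Tef lay 127 bases before its upstream start. These matches describe letters in the window and were not tested as binding sites.

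Levels were first compared between the genes per kilobase of exon in vehicle kidneys. Tef stood highest at 60.7 ± 3.50 CPM per kb (SD, n = 5), above all other members in every kidney. Dbp (37.9 ± 6.88), Usp2 (33.3 ± 8.31), Bhlhe40 (30.7 ± 4.59) and Hlf (25.3 ± 1.88 CPM per kb) followed, and each of these overlapped its neighbour in the order. Tsku lay at 11.4 ± 1.04 and Ciart at 3.26 ± 0.58 CPM per kb, both apart from their neighbours. Nfil3 (1.58 ± 0.34) and Bhlhe41 (1.04 ± 0.27 CPM per kb) were lowest and overlapped. Each PAR bZIP activator was thus far above the repressor Nfil3 per kb. After cisplatin the order changed: Bhlhe40 came first at 43.0 ± 5.45 CPM per kb, Nfil3 rose to 8.73 ± 1.18, and Hlf fell below it to 6.37 ± 1.59 (SD, n = 5), although the ranges of the last 2 overlapped.

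**Figure D1:**
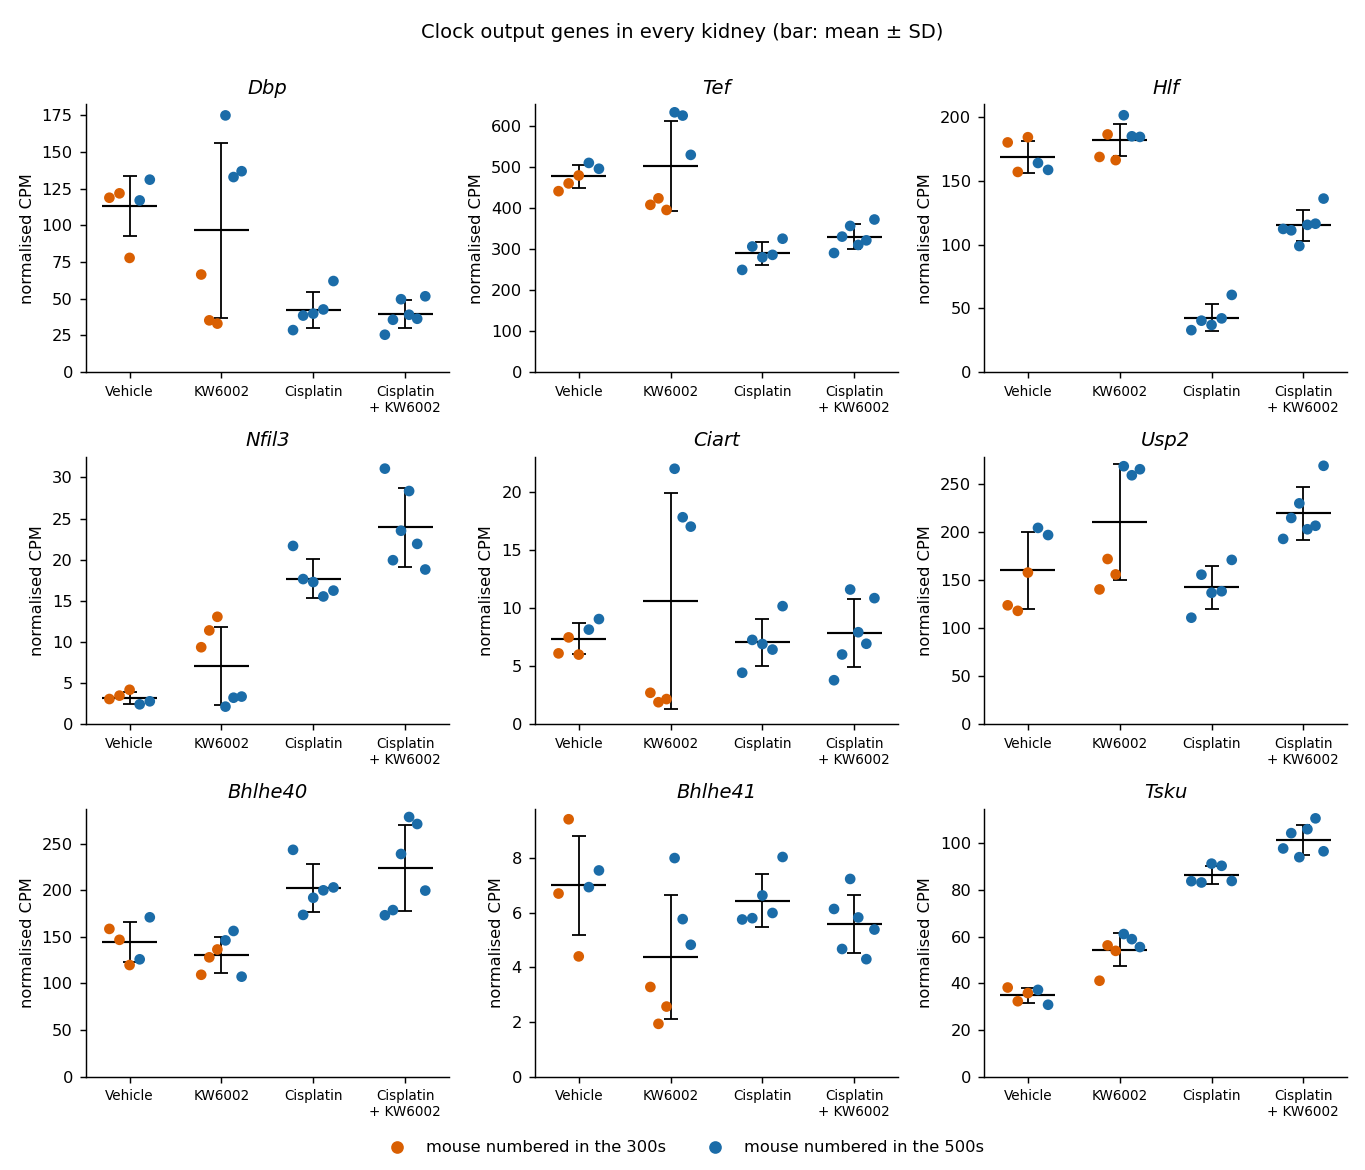
Normalised CPM of the 9 clock output genes in each of the 22 kidneys, by treatment group. Points are kidneys, coloured by whether the mouse number is in the 300s or the 500s. Horizontal bars and whiskers are group means ± SD. Hlf is low in all 5 cisplatin kidneys and intermediate in the 6 cotreated ones, Nfil3 is high in every cisplatin-treated kidney, and the KW6002 group splits by number for Dbp, Tef, Nfil3, Ciart, Usp2 and Bhlhe41.

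After cisplatin all 3 PAR bZIP activators were lower, and Nfil3, whose product represses through the same D-box motif, was higher. Of the 9 members, 3 were lower (Dbp, Tef and Hlf), 3 were higher (Nfil3, Bhlhe40 and Tsku) and 3 were not called (Ciart, Usp2 and Bhlhe41) against vehicle (edgeR quasi-likelihood test, Benjamini-Hochberg adjusted p below 0.05). Across all genes tested, 70.5% were called, 34.6% higher and 35.9% lower, so the share of members called is near the background and is not a result about them. With the stricter rule used in the study (adjusted p below 0.01 and a change beyond 1 on the log2 scale), 4 members remained, Hlf, Tsku, Nfil3 and Dbp, beside 24.1% of all genes. The median log2 fold change was -0.12 over the members and -0.01 over all genes.

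Hlf had the largest decrease of the set. Its level in vehicle kidneys was 180, 157, 184, 164 and 159 CPM, and in cisplatin kidneys 32.9, 40.3, 36.9, 42.1 and 60.5 CPM. No cisplatin kidney came near the vehicle range. The fitted log2 fold change was -1.99 ± 0.12 (SE), a 3.97-fold decrease (edgeR adjusted p = 7.85e-13).

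Dbp, the activator with the strongest known rhythm, fell by less and varied more. Vehicle kidneys held 119, 122, 77.8, 117 and 131 CPM and cisplatin kidneys 28.6, 38.5, 39.8, 42.7 and 62.0 CPM. The 2 groups did not overlap, though the lowest vehicle kidney and the highest cisplatin kidney lay close. The log2 fold change was -1.42 ± 0.35 (SE), or 2.68-fold lower (edgeR adjusted p = 0.00104). Sphk2, a kinase gene that overlaps Dbp on the other strand, went from 50.7 ± 4.04 (n = 5) to 40.2 ± 2.91 CPM (SD, n = 5), and the strand setting of the counting is not stated.

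Tef, the most abundant of the 3 activators, changed least among them. It stood at 442, 461, 480, 511 and 496 CPM in vehicle kidneys and at 249, 307, 280, 286 and 326 CPM in cisplatin kidneys, with no overlap. The log2 fold change was -0.72 ± 0.12 (SE), a 1.65-fold decrease (edgeR adjusted p = 7.80e-06).

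Nfil3, the repressor that competes at the D-box, moved the other way. Vehicle kidneys held 3.07, 3.49, 4.199, 2.43 and 2.80 CPM, the lowest mean of the 4 groups, and cisplatin kidneys 21.7, 17.6, 17.3, 15.5 and 16.2 CPM. Every cisplatin kidney was above every vehicle kidney by a wide margin. The log2 fold change was 2.47 ± 0.35 (SE), or 5.53-fold (edgeR adjusted p = 1.62e-06). The ratio of Dbp to Nfil3 within a kidney, both in CPM, thereby went from 18.5 to 48.2 in vehicle kidneys to 1.32 to 3.82 in cisplatin kidneys.

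Among the feedback repressors, Bhlhe40 rose and its paralog Bhlhe41 was not called. Bhlhe40 lay at 159, 147, 120, 126 and 171 CPM in vehicle kidneys and at 243, 174, 192, 200 and 203 CPM after cisplatin, with the lowest cisplatin kidney just above the highest vehicle kidney. Its log2 fold change was 0.49 ± 0.14 (SE; edgeR adjusted p = 0.00327), and with the mice numbered in the 500s alone it was 0.44 (edgeR adjusted p = 0.0566). Bhlhe41 was at 4.40 to 9.42 CPM in vehicle and 5.75 to 8.04 CPM in cisplatin kidneys, which overlapped, with a log2 fold change of -0.12 ± 0.26 (SE; edgeR adjusted p = 0.705). Ciart also overlapped, at 6.01 to 9.07 CPM and 4.45 to 10.2 CPM, and its fitted log2 fold change was -0.06 ± 0.52 (SE; edgeR adjusted p = 0.918). Its standard error was the widest of the 9. A fit with the number series as a covariate, which assumes the same shift in every group, gave -1.26 for Ciart (edgeR adjusted p = 0.0178).

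Usp2 depended on which vehicle kidneys it was set against. The 3 vehicle mice numbered in the 300s held 124, 118 and 158 CPM and the 2 in the 500s held 204 and 197 CPM, against 111, 156, 137, 138 and 171 CPM in the 5 cisplatin kidneys, all numbered in the 500s. Cisplatin kidneys overlapped the first series and lay below the second. Over all vehicle mice the log2 fold change was -0.17 ± 0.18 (SE; edgeR adjusted p = 0.420). Within the 500s alone it was -0.50 (edgeR adjusted p = 0.00262), and with the series as a covariate -0.55 (edgeR adjusted p = 0.000330).

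Tsku rose with cisplatin. It was at 38.2, 32.3, 35.8, 37.2 and 30.8 CPM in vehicle kidneys and at 83.8, 83.3, 91.4, 90.4 and 83.9 CPM in cisplatin kidneys, 2 narrow and well separated ranges. The log2 fold change was 1.31 ± 0.08 (SE), a 2.48-fold increase and the smallest standard error of the 9 (edgeR adjusted p = 2.38e-12).

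Because all cisplatin mice carry numbers in the 500s, the same comparison was fitted in the 500s alone, with 2 vehicle mice. The log2 fold changes were then -1.56 for Dbp, -0.80 for Tef, -1.93 for Hlf, 2.75 for Nfil3 and 1.34 for Tsku, and these 5 genes were called as before (the highest edgeR adjusted p was 1.21e-05, for Dbp).

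**Figure D2:**
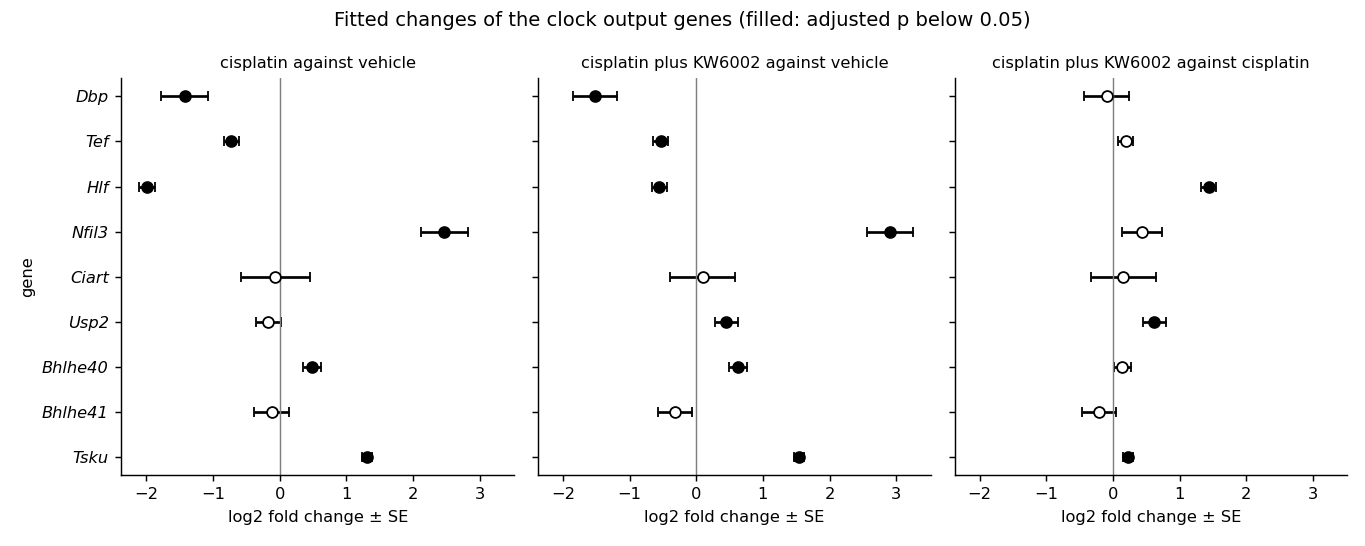
Fitted log2 fold changes of the 9 genes in 3 comparisons, with points for the estimate and whiskers for ± SE. Filled points passed the test at an adjusted p below 0.05. Hlf is far below 0 after cisplatin and above 0 when KW6002 was added to cisplatin, whereas Dbp and Nfil3 keep their distance from vehicle in the cotreated kidneys.

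Adding KW6002 to cisplatin moved Hlf back toward the vehicle level, while Dbp, Tef and Nfil3 were not called against cisplatin alone. Of the 9 members, 3 were higher in cotreated than in cisplatin kidneys (Hlf, Usp2 and Tsku), 0 were lower and 6 were not called. Over all genes 55.8% were called, 28.6% higher and 27.2% lower. With the stricter rule 1 member, Hlf, remained beside 10.3% of all genes. The median log2 fold change was 0.19 over the members and 0.01 over all genes.

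Hlf lay at 112, 111, 98.9, 116, 116 and 136 CPM in the 6 cotreated kidneys. All were above the highest cisplatin kidney (60.5 CPM) and below the lowest vehicle kidney (157 CPM). The log2 fold change against cisplatin was 1.44 ± 0.11 (SE), or 2.71-fold higher (edgeR adjusted p = 5.34e-10). Against vehicle it was -0.55 ± 0.11 (SE; edgeR adjusted p = 0.000125). Summed CPM of the 7 proximal tubule markers moved alongside, from 15026 to 15796 in vehicle to 1430 to 2657 in cisplatin and 5355 to 8292 in cotreated kidneys, with all 7 called lower after cisplatin and 6 called higher on cotreatment. Summed CPM of 5 fat markers was 207 to 429 in cisplatin and 6.05 to 247 in cotreated kidneys, and 1 cotreated kidney reached 40.6 for 3 adrenal markers. The part of these tissues in the Hlf values was not tested, and in whole kidney fewer cells of a type and less RNA per cell cannot be told apart.

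Usp2 and Tsku were the other members called. Usp2 stood at 193, 215, 230, 203, 207 and 269 CPM in cotreated kidneys, above all 5 cisplatin kidneys, with a log2 fold change of 0.62 ± 0.18 (SE; edgeR adjusted p = 0.00464). Tsku stood at 97.9, 104, 94.1, 106, 111 and 96.7 CPM, again above every cisplatin kidney but by a smaller step of 0.23 ± 0.08 on the log2 scale (SE; edgeR adjusted p = 0.0131). For Tsku cotreatment thus added to the cisplatin increase, where for Hlf it opposed the decrease. Scaled by library size alone, the Tsku step was 0.17 (edgeR adjusted p = 0.0656).

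Dbp did not come back with cotreatment. Its 6 cotreated kidneys held 25.4, 35.6, 49.6, 39.1, 36.3 and 51.6 CPM, within the span of the cisplatin kidneys apart from the lowest. The log2 fold change against cisplatin was -0.09 ± 0.33 (SE; edgeR adjusted p = 0.828). Nfil3 stood at 31.1, 19.9, 23.5, 28.3, 21.9 and 18.8 CPM, overlapping cisplatin kidneys from above, and its log2 fold change was 0.44 ± 0.30 (SE; edgeR adjusted p = 0.221). Tef stood at 291 to 372 CPM, and its log2 fold change was 0.19 ± 0.11 (SE; edgeR adjusted p = 0.149). In a fit of the cisplatin and cotreated kidneys alone, with nearly the same log2 fold changes, Nfil3 (0.44, edgeR adjusted p = 0.0102) and Tef (0.19, edgeR adjusted p = 0.0468) were called, and 5 members were then higher. Among the PAR bZIP activators the fitted ratio of cotreated to cisplatin kidneys was thus 2.71 for Hlf, 1.14 for Tef and 0.937 for Dbp, and the difference between the genes was not tested.

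The remaining repressors overlapped. Bhlhe40 lay at 173 to 279 CPM in cotreated kidneys and its fitted difference from cisplatin was 0.14 ± 0.13 on the log2 scale (SE; edgeR adjusted p = 0.370), Bhlhe41 at 4.30 to 7.23 CPM with one of -0.21 ± 0.25 (SE; edgeR adjusted p = 0.509), and Ciart at 3.80 to 11.6 CPM with one of 0.16 ± 0.49 (SE; edgeR adjusted p = 0.803).

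Set against vehicle, the 6 members called after cisplatin were called in the same direction in cotreated kidneys, Hlf at a smaller distance, and Usp2 was called in addition. Dbp, Tef and Hlf were lower and Nfil3, Usp2, Bhlhe40 and Tsku higher, 7 of 9, beside 59.7% of all genes, 29.8% higher and 29.9% lower. The comparison shares its vehicle kidneys with that of cisplatin. Nfil3 was 7.48-fold higher, with a log2 fold change of 2.90 ± 0.35 (SE; edgeR adjusted p = 2.49e-07), and Dbp 2.86-fold lower, with -1.52 ± 0.33 (SE; edgeR adjusted p = 0.000472). The Dbp to Nfil3 ratio in cotreated kidneys was 0.819 to 2.75, and in 1 of them Nfil3 exceeded Dbp. Tsku was 2.91-fold and Bhlhe40 1.55-fold higher, both above every vehicle kidney. The Usp2 call, with a log2 fold change of 0.45 ± 0.18 (SE; edgeR adjusted p = 0.0303), rested on the vehicle mice of the 300s: within the 500s it was 0.13 (edgeR adjusted p = 0.435). It was also lost on leaving out vehicle replicate 1 (0.37, edgeR adjusted p = 0.0878), vehicle replicate 2 (0.36, edgeR adjusted p = 0.0921), vehicle replicate 3 (0.45, edgeR adjusted p = 0.0519) or cotreated replicate 6 (0.38, edgeR adjusted p = 0.0739).

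**Figure D3:**
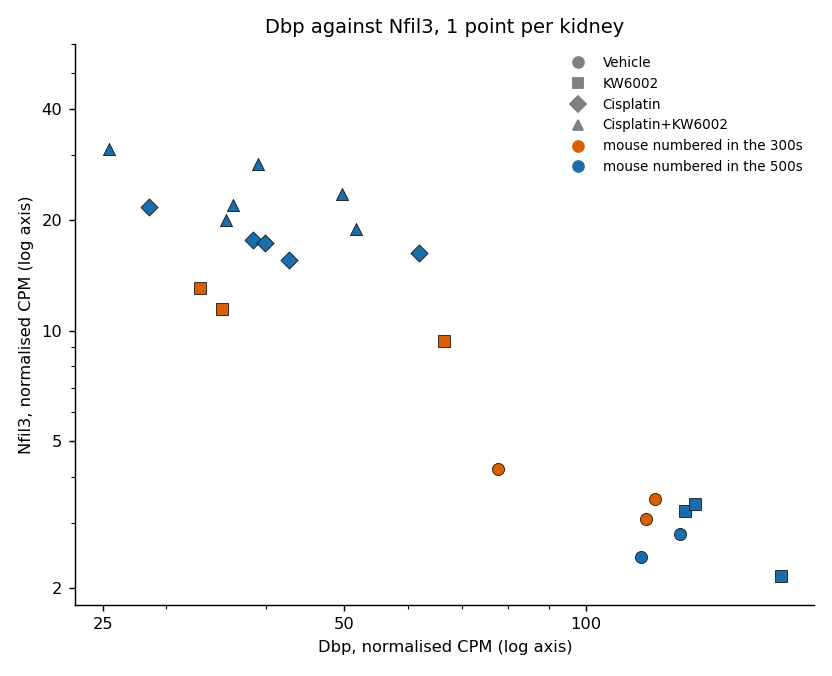
Dbp against Nfil3 in normalised CPM on log axes, 1 point per kidney, with shape for the treatment group and colour for the number series. Vehicle kidneys and KW6002 kidneys of the 500s lie at high Dbp and low Nfil3, the cisplatin-treated kidneys at low Dbp and high Nfil3, and the 3 KW6002 kidneys of the 300s between them in Nfil3, with 2 of these 3 inside the cisplatin range in Dbp.

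In mice without cisplatin, KW6002 kidneys fell apart into the 2 number series for the output genes. This pattern helped to choose the members, so it is given as values. Dbp was at 66.5, 35.2 and 33.0 CPM in the KW6002 mice of the 300s and at 175, 133 and 137 CPM in those of the 500s. In vehicle kidneys Dbp, at 119, 122 and 77.8 CPM and at 117 and 131 CPM, did not split in this way. The difference of mean log2 CPM, KW6002 minus vehicle, was -1.29 in the 300s and 0.25 in the 500s.

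Ciart split furthest. KW6002 kidneys held 2.72, 1.91 and 2.18 CPM in the 300s and 22.03, 17.9 and 17.0 CPM in the 500s, with all vehicle kidneys between them. KW6002 minus vehicle was thus -1.51 on the log2 scale in one series and 1.13 in the other. Tef took the same course over a smaller range, at 408, 424 and 396 CPM against 634, 626 and 530 CPM, a difference from vehicle of -0.17 and 0.24.

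Nfil3 was the mirror image in the 300s. Its KW6002 kidneys held 9.37, 11.4 and 13.1 CPM in the 300s, all above vehicle, and 2.15, 3.23 and 3.37 CPM in the 500s, which overlapped vehicle. The differences were 1.63 and 0.13 on the log2 scale. The Dbp to Nfil3 ratio stood at 2.53 to 7.10 in the first series and 40.6 to 81.4 in the second, against 18.5 to 38.7 and 46.9 to 48.2 in the vehicle kidneys of the same series. Bhlhe41 was lower in the 300s with KW6002, at 3.28, 1.93 and 2.56 CPM beside 6.70, 9.42 and 4.40 CPM in vehicle, and overlapped vehicle in the 500s, a difference of -1.34 and -0.25.

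Of the 9 members, 4 differed by more than 1 on the log2 scale between KW6002 kidneys of the 500s and the 300s (Dbp, Nfil3, Ciart and Bhlhe41), beside 1.71% of all genes. Between vehicle kidneys of the same series it was 0 of 9, beside 3.75%. In the 300s 4 of 9 differed by this much between KW6002 and vehicle, the same 4 genes, beside 1.86%, and in the 500s 1 of 9, Ciart, beside 1.38%. With no threshold on size, 4 of 9 had no overlap between the 2 series in vehicle kidneys, beside 37.6% of all genes. These were Tef, Usp2 and Ciart, higher in the 500s, and Nfil3, lower in the 500s. In KW6002 kidneys it was 6 of 9, beside 26.5% of all genes. The members were chosen with this split known, so nothing is read from these shares.

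Hlf, Bhlhe40 and Tsku did not follow the split. Hlf with KW6002 was at 169, 187 and 166 CPM in the 300s and 202, 185 and 185 CPM in the 500s, a difference from vehicle of 0.00 and 0.24. Bhlhe40 differed from vehicle by -0.18 and -0.12. Tsku was above every vehicle kidney in both series, at 41.1, 56.3 and 53.9 CPM and at 61.2, 59.0 and 55.6 CPM, or 0.50 and 0.79 on the log2 scale. It was the only member for which all KW6002 kidneys lay on one side of all vehicle kidneys. Usp2 was higher in the 500s than in the 300s with and without KW6002, at 140, 172 and 156 CPM against 269, 259 and 265 CPM with it.

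Pooling both series mixed unlike values. The fitted log2 fold changes of KW6002 against vehicle were -0.23 ± 0.33 for Dbp, 0.51 ± 0.49 for Ciart and 1.17 ± 0.35 for Nfil3 (SE), and each of these means stands for a group with 2 separate clusters. The group mean of Dbp with KW6002, 96.6 ± 59.7 CPM (SD, n = 6), falls in a gap where no KW6002 kidney lies. The sign of the pooled values was not stable for Dbp, at 0.26 in the 500s alone, or for Ciart, at -0.25 with the series as a covariate. Tsku gave 0.64 ± 0.08 (SE).

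**Figure D4:**
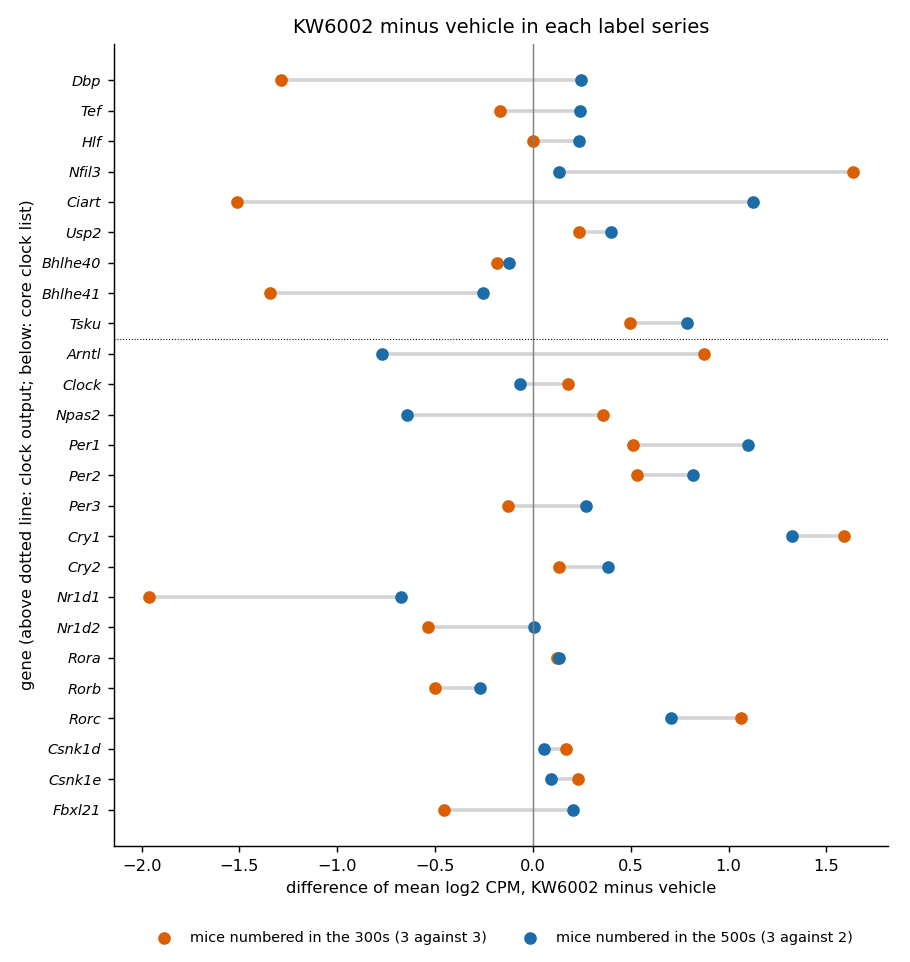
Difference of mean log2 CPM, KW6002 minus vehicle, for each clock output gene (above the dotted line) and the core clock genes shown (below it), in mice numbered in the 300s (3 against 3 kidneys) and in the 500s (3 against 2). Dbp, Tef and Ciart change sign between the series, as Arntl and Npas2 do in the other direction, while Tsku and Cry1 lie above 0 in both.

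The core clock genes split along with the output genes. Nr1d1, which encodes REV-ERB alpha, was at 13.9 to 23.1 CPM in KW6002 kidneys of the 300s and at 80.9 to 115 CPM in those of the 500s. Arntl, whose transcription REV-ERB represses, was at 4.94 to 9.27 CPM and at 2.04 to 4.56 CPM. Cry1 was at 17.2 to 18.9 CPM and at 6.70 to 10.1 CPM. Vehicle kidneys also differed in Nr1d1, at 50.6 to 98.4 CPM in the 300s and 148 to 180 CPM in the 500s. There Arntl was higher in the 500s too, at 3.85 to 4.43 CPM in the 300s and 4.61 to 5.53 CPM in the 500s. KW6002 minus vehicle on the log2 scale was -1.96 for Nr1d1 and 0.87 for Arntl in the 300s. In the 500s both were lower with KW6002, at -0.67 and -0.77, so the 2 genes were opposed only in some of these contrasts. Of the proximal tubule markers, the summed CPM overlapped between the KW6002 series, at 14880 to 15083 and 14495 to 15652, and that of 5 fat markers did too, at 12.2 to 342 and 80.6 to 159. The labels do not say how the 2 series differed, and its part in these values was not tested.

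Within groups, several members varied together from kidney to kidney. For each gene the deviation of its log2 CPM from its group mean was correlated over the 22 kidneys with that of 12758 genes of sufficient level. The genes were measured in the same libraries and share the split above, so r is a description. It is given again over the 11 cisplatin-treated kidneys, which are all of the 500s. Dbp was most like Ciart (r = 0.95, and 0.96 in the 11), Nr1d2 (0.93 and 0.86) and Slc5a6 (0.91 and 0.75). It ran most opposite to Nfil3 (-0.91 and -0.67), Ypel2 (-0.89 and -0.60) and Mapkbp1 (-0.88 and -0.71). Tef was most like Ciart (0.92 and 0.89), Nr1d2 and its fellow member Usp2 (0.88 and 0.97). The link of Nfil3 to its closest genes, Amer1 (0.90 and 0.49), Nav2 (0.90 and 0.33) and Slc16a1 (0.90 and 0.62), was lower in the 11. Bhlhe41 was most like Dbp (0.86 and 0.45).

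The other members had other neighbours. Hlf was most like Enpp3 (0.90 and 0.94), Pipox (0.89 and 0.97) and Aadac (0.89 and 0.96), and its r with Dbp was 0.38 over the 22 kidneys and 0.65 in the 11. Usp2 was most like Klf15 (0.94 and 0.76), Trp53bp2 and Pde4dip. Bhlhe40 was most like Bcar1 (0.74 and 0.85) and Klf10 (0.71 and 0.84), and Tsku most like Rrp9 (0.79 and 0.47). Tsku and Dbp had an r of 0.17, and -0.18 in the 11.

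Genes around the output arm were read from lists. In the core clock list of 17 genes, 10 were higher and 5 lower after cisplatin, with a median log2 fold change of 0.37, where 34.6% of all genes were higher and 35.9% lower. Cry1, which blocks CLOCK and BMAL1, rose by 1.52 ± 0.29 on the log2 scale (SE; edgeR adjusted p = 7.97e-05), and Nr1d2, a repressor of Nfil3, fell by 0.59 (SE 0.16; edgeR adjusted p = 0.00239). Nr1d1 went from 111 ± 52.7 CPM (n = 5) to 60.9 CPM and was not called (edgeR adjusted p = 0.0919). Within the 500s, with vehicle kidneys at 148 and 180 CPM and cisplatin kidneys at 53.0 to 65.7 CPM, its log2 fold change was -1.43 ± 0.19 (SE; edgeR adjusted p = 4.29e-06). On cotreatment Clock, Csnk1d and Csnk1e were lower than with cisplatin, and Fbxl21 was higher by 0.36 ± 0.12 on the log2 scale (SE; edgeR adjusted p = 0.0182), with a list median of 0.05. Nr1d2 averaged 122 CPM with cotreatment and 100 CPM with cisplatin and was not called. Within the 500s it was higher by 0.29 ± 0.07 (SE; edgeR adjusted p = 0.00224). Nfil3 was higher there as well, by 0.44 (edgeR adjusted p = 0.00707), so the 2 did not move in opposite directions on cotreatment.

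In a list of 15 genes named as targets of the clock or of PAR bZIP factors in kidney and liver, 10 were higher and 4 lower after cisplatin, beside 34.6% and 35.9% of all genes. Alas1, the first enzyme of heme synthesis, rose by 1.45 ± 0.10 on the log2 scale (SE; edgeR adjusted p = 7.76e-12). The proximal transporters Slc9a3 (-1.65 ± 0.13, edgeR adjusted p = 1.70e-10) and Slc22a8 (-3.17 ± 0.27, edgeR adjusted p = 4.29e-10) fell, as the proximal tubule markers did. On cotreatment 6 of the 15 were higher and 4 lower than with cisplatin, beside 28.6% and 27.2% of all genes. Cyp2a5, a cytochrome P450 that PAR bZIP factors activate, averaged 127 CPM with cotreatment and 18.3 CPM with cisplatin, higher by 2.80 ± 0.27 on the log2 scale (SE; edgeR adjusted p = 1.02e-08). It averaged 136 CPM in vehicle kidneys. Proximal tubule markers were also higher on cotreatment, and the part of these cells or of the PAR bZIP genes in the Cyp2a5 values was not tested.

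Glucocorticoids can set the phase of peripheral clocks and induce Per1. In a list of 8 glucocorticoid response genes, 7 were higher and 0 lower after cisplatin, beside 34.6% and 35.9% of all genes, with Klf9 at a log2 fold change of 0.31 not called and a list median of 1.68. The lists share genes, so their counts are not separate: Per1 is also in the core clock list and Sgk1 in the target list. Fkbp5 rose by 2.13 ± 0.22 (SE; edgeR adjusted p = 1.52e-08), Dusp1 by 1.68 ± 0.18 (SE; edgeR adjusted p = 2.03e-08) and Errfi1 by 0.88 ± 0.09 on the log2 scale (SE; edgeR adjusted p = 7.51e-09). Each of these genes was already higher in vehicle kidneys of the 500s than of the 300s. Fkbp5 was at 107 to 124 CPM in the 300s, 201 to 244 CPM in the 500s and 566 to 837 CPM after cisplatin. Within the 500s alone 6 of the 8 list genes were called. On cotreatment 1 was higher than with cisplatin (Sgk1) and 3 lower (Fkbp5, Tsc22d3 and Dusp1), beside 28.6% and 27.2% of all genes, with a median of -0.05. Their part in the output gene values was not tested.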

How the data were processed

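Kidney poly(A) RNA of 22 mice was sequenced by the authors (TruSeq Stranded mRNA libraries, single reads of 50 bases), aligned with STAR to mm10 and counted per gene with HTSeq 0.6.1p1. The deposited values are raw counts, and 66 columns of the file without a name or value were not used. Read depth ran from 26471762 to 40510754 counts. Group and mouse number came from the sample labels. The members and gene lists were chosen with earlier results of these data known. Symbols and coordinates came from GENCODE M21 (32824 of 32858 IDs matched).

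Genes with low counts were removed (filterByExpr, 17131 kept), libraries were scaled by TMM and 1 mean per group was fitted over all 22 kidneys in edgeR 4.0.16 (quasi-likelihood test, two-sided, Benjamini-Hochberg over all genes, threshold 0.05). CPM are TMM-normalised, and no pseudocount enters them. Standard errors come from the same fit, and log2 CPM used a prior count of 2. The fit was tested on simulated data. Alternatives were DESeq2 1.42.0, relative log expression factors, library-size scaling, no low-count filter, the stricter threshold, fits of the compared groups alone, of the 500s alone, with the number series or the replicate number as a term, and leaving out each kidney. The 300s alone were added after seeing the data for KW6002 against vehicle. All 9 members and the core clock genes could be named. The values of 1 core clock gene are not reported here. From other lists it was at most the 3 lowest adjusted p per comparison, and for likeness the 3 highest r among genes averaging 1 or more in log2 CPM. Cell type markers were summed as CPM. No file was left out. P-values measure the spread between mice.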

Additional observations from a re-analysis of the deposited data

Results flagged for a closer look

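Among 36 combinations of gene and group, 2 kidneys lay far from the others of their group, where chance would flag about 5% of groups. Vehicle replicate 3 was lowest in Dbp at 77.8 CPM, and KW6002 replicate 1 was lowest in Tsku at 41.1 CPM. For 3 genes every KW6002 kidney lay on one side of vehicle in the mice numbered in the 300s and on the other in the 500s, a difference that was not tested because it helped to choose the genes. On the log2 scale, KW6002 minus vehicle was -1.29 and 0.25 for Dbp, -0.17 and 0.24 for Tef, and -1.51 and 1.13 for Ciart.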

How the results depend on the processing

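Members called in cotreated against cisplatin kidneys were 3 of 9, and 5 with only these groups or only the 500s, which leave out the KW6002 kidneys of the 300s. Under the stricter threshold there was 1, and 3 in cotreated against vehicle. Core clock genes called in cotreated against cisplatin kidneys were 5 of 17, but 11 with only the groups compared, 8 with the replicate block, 9 with the series covariate, 11 in the 500s and 0 at the stricter threshold. That threshold also left 3 core clock genes and 8 target genes for cisplatin, and 3 target and 0 glucocorticoid genes for cotreatment. Values of the cisplatin comparisons that changed sign were, for cisplatin against vehicle scaled by library size, Ciart 0.15, Usp2 0.048 and Bhlhe41 0.10, where that scaling moved the median of all genes to 0.20; and for Ciart -0.013 in cotreated against cisplatin and -0.099 against vehicle with the replicate block, -0.13 in the 500s and -1.10 with the series covariate (edgeR adjusted p = 0.0381). With the covariate Bhlhe41 against vehicle was -0.77 in cotreated kidneys (edgeR adjusted p = 0.0146). Leaving out 1 kidney gave -0.21 to 0.084 for Dbp in cotreated against cisplatin, -0.23 to 0.065 for Ciart and -0.25 to 0.0078 for Bhlhe41 in cisplatin against vehicle, and -0.047 to 0.23 for Ciart in cotreated against vehicle; the counts of members called stayed at 6, 3 and 6 to 7. KW6002 against vehicle, without a test, ran from -0.59 to 0.26 for Dbp and from -0.25 to 1.14 for Ciart over the 8 settings that neither left out a single kidney nor used the 300s alone. The cause of these shifts was not tested. Of 31 same-numbered pairs, 7 correlated over 0.1 (-0.18 to 0.40). Differently numbered pairs were not compared, so these values cannot show whether replicate numbers pair the mice. The replicate block changed no other count by over 1.5 times. Counts were lowest for Nfil3, Ciart and Bhlhe41, down to 57, 62 and 73 reads in a KW6002 kidney. The part of low counts in their spread was not tested.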
